A study of Homo sapiens with 6 samples.

Results

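Integrins and immunoglobulin-type adhesion receptors were examined in MDA-MB-231 cells, an established line from a human triple-negative breast carcinoma. The genes were taken by symbol. Those beginning with ITGA, ITGB or NECTIN were kept, together with the ICAM, CADM and JAM families, VCAM1, L1CAM, ALCAM, MCAM and BCAM, and antisense transcripts were left out. This gave 20 of the 14884 genes that could be named on the arrays, out of 51 protein-coding RefSeq genes that the same symbols cover. The series compared 3 arrays of control cells with 3 arrays of cells with a knockout of NR1D1, the gene of the heme-binding circadian repressor REV-ERBα. Both groups had spent 72 h in 200 µM hydrogen peroxide, so neither shows untreated cells. How the knockout was made, and whether it is 1 clone, is not given in the sources used here. The arrays of a group are titled biological replicates, but separate cultures are not stated. A p-value here therefore weighs the group difference only against the scatter among these 6 arrays, and some of that scatter could be technical.

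The name of the set holds for its receptors of the immunoglobulin type and not for integrins. None of 26 integrin subunit genes had a probe set annotated with its symbol alone, so no α or β subunit is described. Probe sets with several symbols were left out. The 3 genes that the prefix ITGB brought in, ITGB1BP1, ITGB1BP2 and ITGB3BP, are named after integrin tails that their products bind and encode no subunit. The other 17 genes are 3 intercellular adhesion molecules, 4 nectins, 3 CADM genes, 2 junctional adhesion molecules and 5 further receptors.

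Integrins are αβ heterodimers that bind matrix proteins or counter-receptors on other cells and link them to actin through talin and kindlin. Receptors of the immunoglobulin superfamily bind with their outer domains either one another, as nectins do, or an integrin on a facing cell, as ICAM1 and VCAM1 do when leukocytes attach to inflamed endothelium. In carcinoma cells several of them, among them ICAM1, L1CAM and ALCAM, are studied as factors in migration and in contact with stromal and immune cells. ICAM1 and VCAM1 are textbook targets of NF-κB, a transcription factor family of inflammation.

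The promoters of these 2 targets are shown because both genes changed and because NF-κB-type letters are present in each. The sequences are the 250 bases before the RefSeq start on the plus strand of GRCh38.p14, at chr19:10270870-10271119 for ICAM1 and chr1:100719492-100719741 for VCAM1. Capitals mark GGANNTTCC in ICAM1 and the looser form GGNNNTTCC in VCAM1, searched on both strands, where N is any base and the first form is contained in the second.
ICAM1 promoter: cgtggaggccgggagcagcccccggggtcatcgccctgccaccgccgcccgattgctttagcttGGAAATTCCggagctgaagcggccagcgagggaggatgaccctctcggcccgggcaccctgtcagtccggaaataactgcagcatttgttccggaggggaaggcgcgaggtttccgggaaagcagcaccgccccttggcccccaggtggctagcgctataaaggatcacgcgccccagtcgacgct
VCAM1 promoter: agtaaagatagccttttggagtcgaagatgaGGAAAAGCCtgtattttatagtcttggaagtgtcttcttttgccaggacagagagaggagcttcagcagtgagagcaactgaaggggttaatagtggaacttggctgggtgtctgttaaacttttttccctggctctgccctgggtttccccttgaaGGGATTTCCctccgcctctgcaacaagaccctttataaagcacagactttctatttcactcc

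In ICAM1 the match GGAAATTCC began 186 bases before the start and read as a match on both strands. In VCAM1 the match GGGATTTCC began 62 bases before the start, and a second one lay on the minus strand, 219 bases before it. Of 35116 RefSeq windows of 300 bases, which reach 50 bases past the start, 4.56% held GGANNTTCC and 20.1% held GGNNNTTCC. Windows were at hand for 15 of the 20 genes, and not for ICAM2, CADM1, JAM2, JAM3 or NECTIN1. The tighter form was found in 2 of the 15, ICAM1 and ICAM3, and the looser one in 8. Those 8 were ICAM1 and VCAM1, ITGB3BP, which was higher, and ICAM3, ITGB1BP1, ITGB1BP2, MCAM and NECTIN4, which were not called. L1CAM, NECTIN3, ALCAM and BCAM, which were called, held neither form. The nuclear receptor motif AGGTCA was in the windows of ICAM3, ITGB1BP2 and NECTIN4, against 13.8% of all windows. AANT directly before that motif, the element that ROR and REV-ERB receptors share, was in 0 of the 15 and in 0.168% of all windows. The AP-1 form TGANTCA was in 0 of the 15 and in 7.71% of all. These are matches of letters and not measured binding. The 2 promoters shown were picked after the changes were seen, and the part of such sites in the changes was not tested.

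Knockout cells had less ICAM1, ICAM2, L1CAM and VCAM1 transcript and somewhat more NECTIN3, ALCAM, BCAM and ITGB3BP. A gene is called changed where limma, fitted over all 14884 genes, gave a Benjamini-Hochberg adjusted p under 0.05. By that rule 4 of the 20 genes were higher, where 4.74% of all genes were, and 4 were lower, where again 4.74% of all genes were. In either direction this is 40% of the set beside 9.49% of all genes. The 2 groups of arrays did not overlap for 5 genes that were higher, against 15.1% of all genes, and for 6 that were lower, against 13.6%. The median log2 change of the set was -0.0052, next to 0.0039 for all genes, while the median size of a change was 0.193 against 0.125. Calls in the set went both ways and the falls were the larger, with changes from -1.84 to 0.46. None of the 4 rises kept its call without control replicate 2 or without knockout replicate 2. VCAM1 lay below the median of every array.

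**Figure D1:**
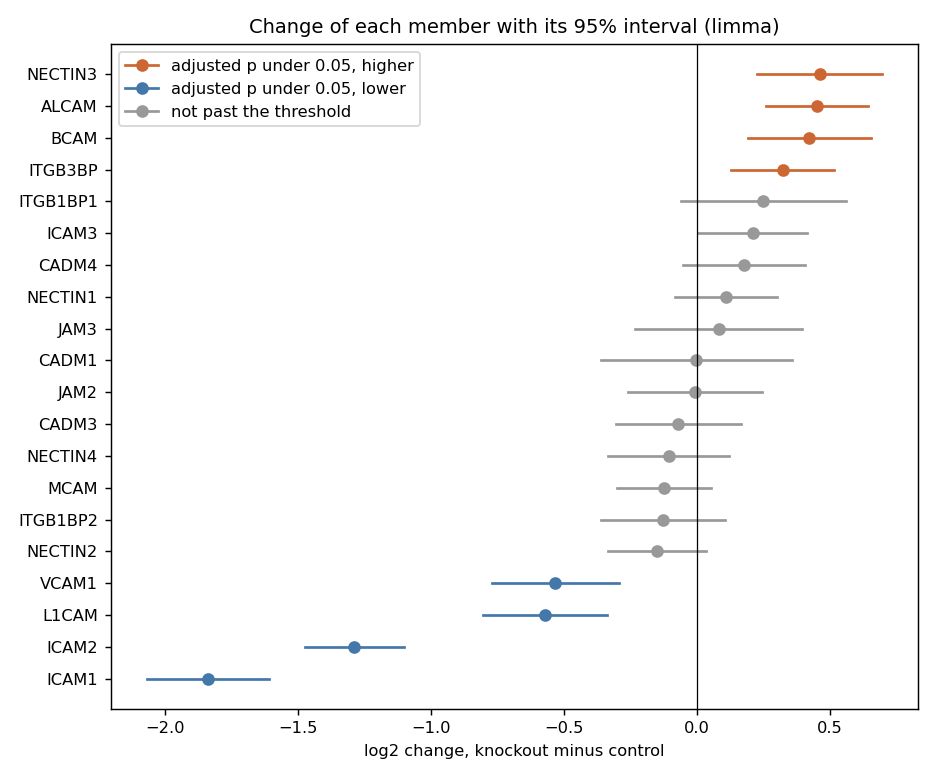
Log2 change of each of the 20 genes, knockout minus control, with its 95% interval from limma. ICAM1 and ICAM2 lie furthest from 0, at -1.84 and -1.29, and the 4 genes that were called higher reach no further than 0.46.

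Among intercellular adhesion molecules, 2 of 3 fell, where 4.74% of all genes did. ICAM1, whose product is bound by the leukocyte β2 integrins, measured 10.82, 10.88 and 10.88 on the control arrays and 9.15, 9.09 and 8.84 on the knockout arrays (log2 level). All 3 knockout arrays lay far below all 3 controls, and knockout replicate 3 was the lowest. The mean fell from 10.86 ± 0.0335 to 9.03 ± 0.167 (SD, n = 3 each), which is 3.57-fold lower (log2 change -1.84, SE 0.0992, limma adjusted p = 5.23e-05). Only 9 of the 14884 genes fell further. Fewer cells that express a gene and less transcript in each cell cannot be told apart in such bulk RNA.

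ICAM2, a ligand of the same integrins that is best known from endothelium and platelets, measured 7.56, 7.45 and 7.59 in control and 6.24, 6.31 and 6.19 in knockout arrays. The groups were wide apart, each within a narrow band, with means of 7.53 ± 0.0701 and 6.25 ± 0.0621 (SD, n = 3 each). This is 2.44-fold lower (log2 change -1.29, SE 0.0812, limma adjusted p = 9.43e-05). The gene stands next to ERN1, the endoplasmic reticulum stress sensor gene, on chromosome 17. ERN1, named here after its values were seen, was 2.56-fold lower, from 7.38 ± 0.0713 to 6.02 ± 0.112 (n = 3 each, limma adjusted p = 0.000114). The gene models of the pair do not overlap in RefSeq. That of ICAM2 does overlap PRR29, which changed by -0.21 with an adjusted p of 0.444. The part of either neighbour in the ICAM2 value was not tested.

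ICAM3, the leukocyte member of the family, did not follow. Its control values were 5.87, 6.09 and 5.93 and its knockout values 6.23, 6.17 and 6.11, so the knockout arrays lay just above the controls. The log2 change of 0.21 had a 95% interval of 0.005 to 0.41 and missed the threshold (limma adjusted p = 0.208). Differences between family members were also taken on each array. Offsets between probe sets carry no meaning as levels, and only their shift between groups is read. The offset of ICAM1 from ICAM3 was 4.90 ± 0.0962 in control and 2.85 ± 0.115 in knockout arrays on the log2 scale (SD, n = 3 each), a shift of -2.05. The shift of ICAM1 against ICAM2 was -0.55 and that of ICAM2 against ICAM3 was -1.50. Each of these 3 shifts reached p = 0.1 in a two-sided exact permutation test, the smallest that 3 against 3 arrays can give. After Benjamini-Hochberg adjustment over the 13 pairs within families that were compared, it was 0.186. The same floor was reached by 7 of the 13 pairs, among them NECTIN1 against NECTIN2, where neither gene was called.

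**Figure D2:**
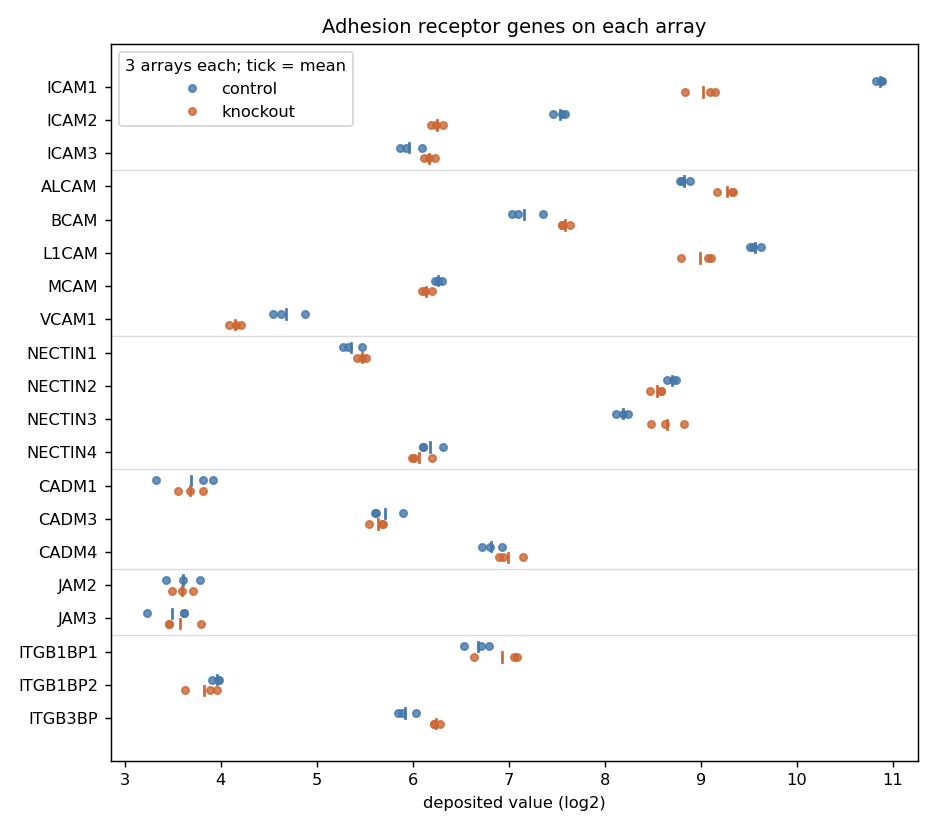
Deposited log2 value of each gene on each of the 6 arrays, with control and knockout arrays as points and group means as vertical ticks, grouped by family. The arrays of the 2 groups are wide apart for ICAM1 and ICAM2, closer for VCAM1, L1CAM, NECTIN3, ALCAM and BCAM, and mixed for CADM1, JAM2 and JAM3, and levels of different genes cannot be set against each other on such arrays.

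The other single immunoglobulin-type receptors split, with 2 lower, 2 higher and 1 that missed the threshold. Of all genes 4.74% were called in each direction. L1CAM, a neural adhesion receptor also found on carcinoma cells, measured 9.62, 9.51 and 9.55 in control and 8.79, 9.10 and 9.07 in knockout arrays. The controls were close together and knockout replicate 1 was the lowest. L1CAM was 1.49-fold lower (9.56 ± 0.0555 to 8.99 ± 0.172, SD, n = 3 each, limma adjusted p = 0.0112). VCAM1, the counter-receptor of integrin α4β1, measured 4.54, 4.88 and 4.62 in control and 4.08, 4.21 and 4.15 in knockout arrays. These groups also did not overlap, and VCAM1 was 1.45-fold lower (4.68 ± 0.178 to 4.15 ± 0.0623, n = 3 each, limma adjusted p = 0.0167). Without knockout replicate 1 it missed the threshold (adjusted p = 0.0539). All 6 of its values lay below the array medians of 5.18 to 5.22, and no detection calls were at hand.

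ALCAM, which binds CD6 on T cells and other ALCAM molecules, measured 8.80, 8.79 and 8.88 in control and 9.33, 9.33 and 9.17 in knockout arrays. It was 1.37-fold higher without overlap of the groups (8.82 ± 0.0524 to 9.27 ± 0.0934, SD, n = 3 each, limma adjusted p = 0.0131). BCAM, the Lutheran blood group receptor for laminin, measured 7.35, 7.03 and 7.10 in control and 7.64, 7.55 and 7.55 in knockout arrays. Control replicate 1 was the control nearest to the knockout arrays, and the rise was 1.34-fold (7.16 ± 0.17 to 7.58 ± 0.0481, n = 3 each, limma adjusted p = 0.0361). MCAM, an endothelial and melanoma receptor, measured 6.27 ± 0.039 and 6.14 ± 0.0569 (n = 3 each). Its groups did not overlap, but the log2 change of -0.13 had an interval of -0.30 to 0.051 and missed the threshold (limma adjusted p = 0.39).

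Both rises lost their call when certain single arrays were left out. Leaving out control replicate 1 took the adjusted p of ALCAM to 0.0532, and it was 0.0511 with control replicate 2 left out and 0.0533 with knockout replicate 2 left out. For BCAM it was 0.114 when control replicate 2 was dropped and 0.125 when control replicate 3 was. Dropping knockout replicate 1, 2 or 3 gave BCAM 0.0973, 0.0903 or 0.0799. With 1 array fewer, the count of changed genes among all genes fell too, from 1412 to between 723 and 1049.

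Nectins join neighbouring cells at adherens junctions and hold afadin inside the cell. Of the 4 nectins 1 rose, where 4.74% of all genes did. NECTIN3 measured 8.12, 8.19 and 8.24 in control and 8.82, 8.62 and 8.49 in knockout arrays. The knockout arrays were more spread but all above the controls, and the rise was 1.38-fold (8.18 ± 0.0605 to 8.64 ± 0.17, SD, n = 3 each, limma adjusted p = 0.0276). The adjusted p of NECTIN3 was 0.0963, 0.078 and 0.0684 when control replicate 1, 2 or 3 was dropped, and 0.0581 and 0.0748 when knockout replicate 1 or 2 was.

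The other nectins did not pass. NECTIN2, a ligand of the immune receptors TIGIT and CD226, measured 8.70 ± 0.0501 in control and 8.55 ± 0.0701 in knockout arrays, without overlap (log2 change -0.15, interval -0.33 to 0.032, limma adjusted p = 0.313). NECTIN1, the preferred partner of NECTIN3 on a facing cell, had an interval of -0.084 to 0.30, and NECTIN4, the epithelial nectin targeted by an antibody conjugate in bladder cancer, one of -0.33 to 0.12. The offset of NECTIN2 from NECTIN3 went from 0.51 ± 0.0695 in control to -0.097 ± 0.235 in knockout arrays, a shift of -0.61 (SD, n = 3 each, exact permutation p = 0.1, adjusted over the 13 pairs 0.186).

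None of the 3 CADM genes or the 2 junctional adhesion molecules was called, where 9.49% of all genes were. CADM genes encode nectin-like receptors of epithelia and synapses. CADM4 changed by 0.18 on the log2 scale (interval -0.051 to 0.41), CADM3 by -0.071 (-0.31 to 0.16) and CADM1 by -0.0025 (-0.36 to 0.36). CADM1 and CADM3 each had a second, dimmer probe set, which changed by -0.018 and -0.14 and was not called either. JAM2 and JAM3, receptors of tight junctions and of endothelium, changed by -0.0079 (interval -0.26 to 0.24) and 0.081 (-0.23 to 0.40). CADM1, JAM2 and JAM3 lay below the array medians, and JAM3 control replicate 3, at 3.23, stood apart from the other 2 controls, which were both 3.62. Changes inside these intervals cannot be told from none with 3 arrays a group.

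Of the 3 genes named after integrin tails 1 was called, where 9.49% of all genes were. ITGB3BP, a kinetochore protein that was also isolated as a partner of the integrin β3 tail and of nuclear receptors, measured 5.84, 6.03 and 5.88 in control and 6.22, 6.22 and 6.29 in knockout arrays. The groups did not overlap and the rise was 1.25-fold (5.92 ± 0.101 to 6.24 ± 0.0401, SD, n = 3 each). Its limma adjusted p, 0.0499, lay just inside the threshold. It missed the threshold without any 1 array (adjusted p from 0.0551 to 0.163), after another quantile normalization (0.0607) and after centring on array medians (0.0567). ITGB1BP1, the integrin β1 tail inhibitor ICAP1, measured 6.53, 6.79 and 6.70 in control and 6.63, 7.08 and 7.06 in knockout arrays. Knockout replicate 1 fell among the controls, and the log2 change of 0.25 had an interval of -0.062 to 0.56. ITGB1BP2, which encodes the muscle protein melusin, changed by -0.13 (interval -0.36 to 0.10).

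**Figure D3:**
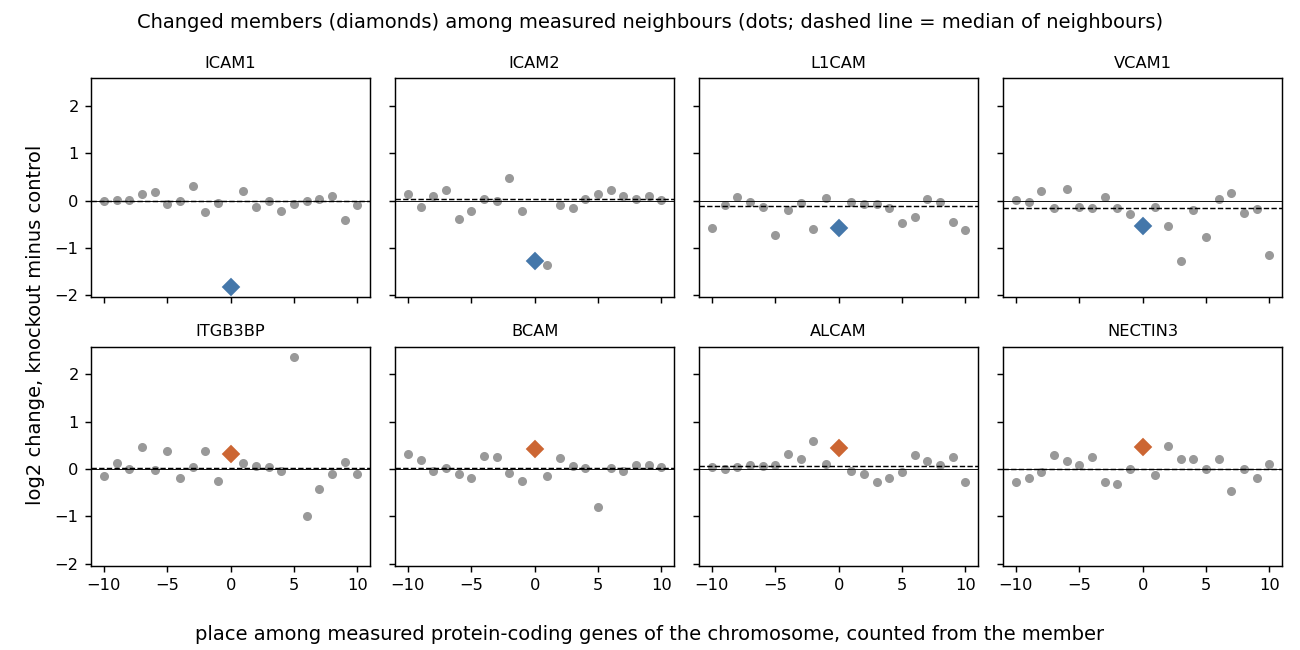
Log2 change of each of the 8 changed genes (diamond) and of up to 10 measured protein-coding genes on each side of it in chromosome order (dots), with the median of the neighbours as a dashed line. The neighbours of ICAM1 and BCAM scatter about 0, while those of L1CAM and VCAM1 lie mostly below it.

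The changed genes were set beside their neighbours on the chromosome. Of all 14884 genes 7589 were above 0 and 7295 below 0, and 4.74% were called in each direction. ICAM1 stood far from its 20 measured neighbours on chromosome 19, whose median log2 change was -0.012 and of which 1 was called lower and 0 higher. For ICAM2 the median was 0.032, and the 1 neighbour called lower was ERN1. The 20 neighbours of L1CAM on chromosome X had a median of -0.11, with 17 below 0 and 4 called lower. Those of VCAM1 on chromosome 1 had a median of -0.15, with 14 below 0 and 4 called lower. L1CAM and VCAM1, at -0.57 and -0.53, thus fell among neighbours that were mostly below 0, and the part of position in their values was not tested. For the genes that rose the medians were 0.0015 at NECTIN3, 0.066 at ALCAM, 0.027 at BCAM and 0.021 at ITGB3BP. Of 20 neighbours each, 10 were above 0 at NECTIN3, 13 at ALCAM, 12 at BCAM and 11 at ITGB3BP. Called neighbours were 1 higher at NECTIN3, 1 higher at ALCAM, 1 lower at BCAM, and 2 higher and 2 lower at ITGB3BP. ALCAM and NECTIN3 lie near each other on chromosome 3, and some of their neighbours are the same genes. The 2 sets of neighbours are therefore not separate, and the part of position in these 2 rises was not tested. BCAM and NECTIN2, which share 1 stretch of chromosome 19, changed by 0.42 and -0.15.

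Genes that work with these receptors were counted in 6 lists. The share of all genes called, 9.49%, or 4.74% in each direction, stands beside each count. Of the NF-κB list 7 of 14 genes were measured. These are the subunit genes NFKB1, NFKB2, RELA, RELB and REL, the IκB-like cofactor gene BCL3 and the IκB kinase gene CHUK, so none of the classical IκB inhibitor genes is described. Of the 7, 3 fell and 0 rose (42.9% called), and all 7 had a log2 change below 0 (median -0.26). The falls were NFKB1 (2.04-fold lower), the precursor gene NFKB2 (1.78-fold lower, 8.07 ± 0.192 to 7.23 ± 0.193) and RELB (1.75-fold lower, 7.60 ± 0.088 to 6.80 ± 0.0967, n = 3 each), with limma adjusted p of 0.000319, 0.00635 and 0.00122. RELA, the subunit that most often acts with NFKB1, changed by -0.13 (adjusted p = 0.367).

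Of 18 measured junction partners of nectins, JAMs and CADMs 5 fell and 1 rose (median log2 change -0.14), which is 33.3% called beside 9.49% of all genes. CLMP, a receptor of the same immunoglobulin family as the JAMs, was 2.27-fold lower (8.97 ± 0.131 to 7.79 ± 0.164), PARD6B, a polarity protein gene, 1.90-fold lower (11.09 ± 0.0512 to 10.17 ± 0.125) and CASK, a scaffold that binds CADM tails, 1.68-fold lower (10.20 ± 0.0339 to 9.45 ± 0.0638, n = 3 each), all with limma adjusted p no higher than 0.000924. Without control replicate 3 or knockout replicate 2 the falls were 3. The 1 rise was lost without any 1 array other than knockout replicate 3, without which 2 rose.

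Of 27 measured cytoplasmic integrin adaptors 2 rose and 2 fell, 14.8% beside 9.49% of all genes, which is not far apart for so few calls. Their median was -0.017, and the talin gene TLN1 (log2 change -0.12) and the vinculin gene VCL (0.074) were not called. Of the kindlin genes FERMT3 was 1.30-fold lower (limma adjusted p = 0.0381). FERMT1 (log2 change -0.081) and FERMT2 (0.0046) were not called. TGFB1I1, a paxillin relative, was 1.42-fold higher (limma adjusted p = 0.0411), KANK1, which binds talin, 1.32-fold higher (0.0352) and the tensin gene TNS3 1.37-fold lower (8.93 ± 0.0298 to 8.48 ± 0.0092, n = 3 each, 0.00729). These counts were small and unstable, with 1 fall without any 1 array and 0 rises without any 1 array other than knockout replicate 3, without which 1 rose. The list of membrane linkers also holds tetraspanins, the ALCAM ligand CD6 and relatives of L1CAM. Of its 14 measured genes 1 fell and 1 rose, 14.3% and likewise near the share of all genes. CD82, a tetraspanin that restrains metastasis, fell by 0.58 on the log2 scale (8.26 ± 0.0492 to 7.67 ± 0.036, n = 3 each, limma adjusted p = 0.00262). NRCAM, a relative of L1CAM, was 1.37-fold higher (limma adjusted p = 0.0274), with all its values below the array medians of 5.18 to 5.22. The rise of NRCAM lost its call when control replicate 1, control replicate 3, knockout replicate 2 or knockout replicate 3 was dropped.

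Matrix ligands of integrins held 3 rises and 2 falls among 16 measured genes (31.2% called, beside 9.49% of all genes), with a median of 0.028. TNC (log2 change 1.56) and FN1 (0.83) were higher and FBN1 (-0.90) was lower. These 3 are ligands whose receptors are among the subunits without a probe set under their symbol alone. Latent TGF-β, which integrins of the αV group can release, was represented by 6 carrier genes of 9 listed, and no TGF-β gene itself was measured by name. Of the 6 carriers 1 rose (16.7% called). That was LTBP1, 1.63-fold higher (7.11 ± 0.0882 to 7.81 ± 0.0311, n = 3 each, limma adjusted p = 0.00148).

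**Figure D4:**
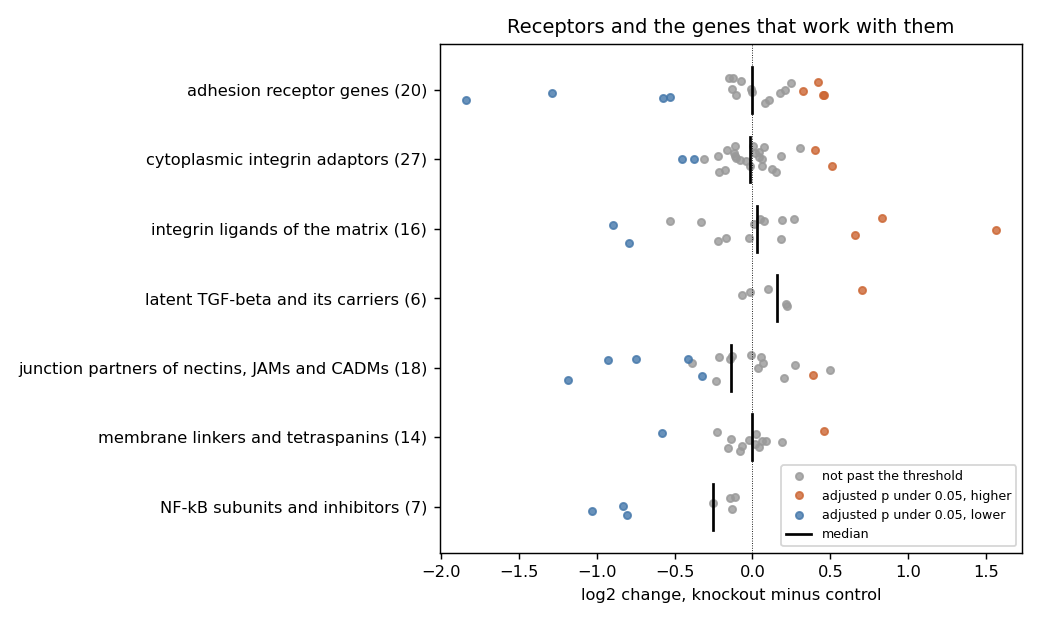
Log2 change of every measured gene in the receptor set and in 6 lists of genes that work with it, 1 point a gene, coloured by call, with the median of each list as a black bar and the number of measured genes in brackets. All 7 genes of the NF-κB list lie below 0, and the other lists have members on both sides.

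Markers of cell types that carry ICAM1 and VCAM1 in tissue were read in the same fit. None of 7 measured leukocyte markers was called, and their summed level ran from 8.29 to 8.36 in control and from 8.20 to 8.31 in knockout arrays (log2 of the sum). Of 8 endothelial markers 1 was called (12.5%, beside 9.49% of all genes), the VEGF receptor gene KDR (1.42-fold higher, limma adjusted p = 0.00628), and the summed level ran from 8.37 to 8.43 and from 8.44 to 8.46. None of 4 fibroblast markers was called. Of 8 measured markers of mesenchymal-like breast lines 2 were called (25%, beside 9.49% of all genes). VIM was 1.27-fold higher and CD44 1.28-fold lower. The summed level of the 8 was 13.35 to 13.40 in control and 13.42 to 13.52 in knockout arrays. In control arrays VIM measured 9.01 ± 0.0479 and CD44 9.86 ± 0.0187 (n = 3 each), well above the array medians. TWIST1, of the same list, measured 4.75 ± 0.184 in control arrays (n = 3), below those medians. On a log2 scale without detection calls no marker can be read as 0, and the part of these markers in the receptor values was not tested.

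**Figure D5:**
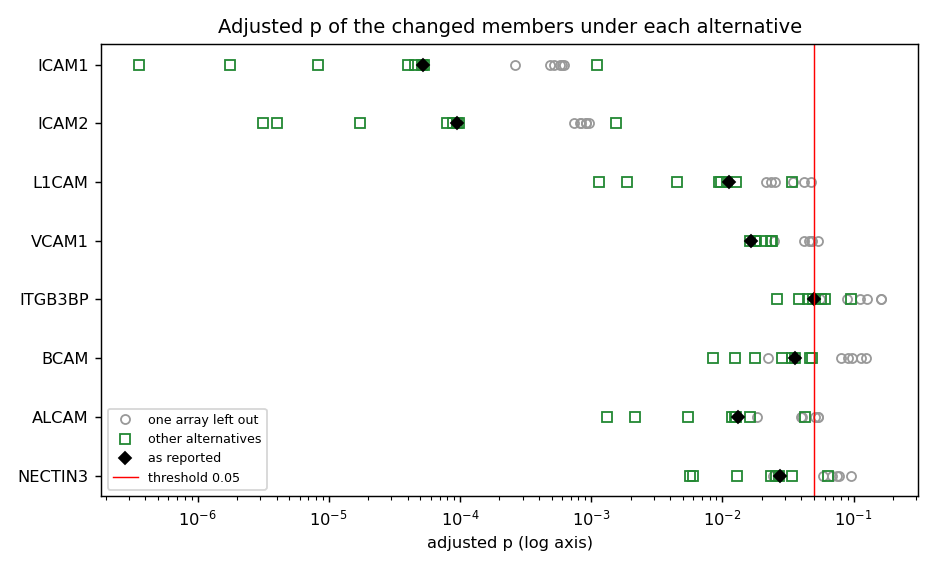
Limma adjusted p of each of the 8 changed genes (log axis) as reported and under each alternative setting, with the threshold of 0.05 as a line. ICAM1, ICAM2 and L1CAM stay left of the line under all 14 alternatives, and the genes that rose cross it.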

How the data were processed

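Total RNA was the starting material for labelling and hybridisation to GeneChip whole-transcript arrays (labels' protocols). The authors deposited 1 value per probe set and array, read as log2 probe set summaries from their range of 1.16 to 13.75. Array medians of 5.18 to 5.22 were nearly equal, as after normalization between arrays, and the method is not stated. No source used here states the software, background correction or summarization.

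Of 53617 probe sets, 16098 carried 1 symbol in the platform annotation, and those with none or with several were left out. For each of 14884 genes the probe set with the highest mean was used. The comparison used R 4.3.3 and limma 3.58.1 (two-sided moderated test, Benjamini-Hochberg over all genes, threshold 0.05), which was tested on simulated data. All 20 members were fitted, none was removed as dim, and 3 antisense genes were left out. Up to 3 called genes of each list are named, by size of change, and every member is named. Genes given with values outside that rule were chosen after their values were seen. These are ERN1, PRR29, S1PR1, RELA, TLN1, VCL, FERMT1, FERMT2, FERMT3, TWIST1, EPCAM and KRT18. The members and lists were chosen with earlier results of these data known. The looser NF-κB form was added later. Sequences are from RefSeq (GRCh38.p14), the protein tail motifs that had been listed were not run because no protein table was used here, and no build is named for the arrays. Python 3.11.15 with matplotlib 3.10.9 made the figures.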

Additional observations from a re-analysis of the deposited data

How the results depend on the processing

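Under 14 alternatives ICAM1 (log2 change -1.90 to -1.74), ICAM2 (-1.33 to -1.26) and L1CAM (-0.63 to -0.47) kept their direction and their call. VCAM1 kept its call in 11 of the 12 that tested it (-0.60 to -0.43), ALCAM in 11 of 14, BCAM in 9 of 14, NECTIN3 in 8 of 14 and ITGB3BP in 4 of 13, all without a change of sign, and 0 other members became called. Rises among the members were 0 to 2 without 1 array.

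With the replicate number as a block, 2 members rose. NECTIN3 had an adjusted p of 0.0639 and ITGB3BP one of 0.0958 in that fit, and the other 6 calls held. The block left 1 rise and 1 fall among integrin adaptors, 0 rises among junction partners and 0 among membrane linkers. All genes called were 1050 in place of 1412. Between arrays of the same number, the deviations from the group means correlated at 0.055, 0.068 and -0.11. Values for arrays of unlike numbers are not given beside them. Whether the numbers mark a shared batch can therefore not be told.

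Without 1 array, integrin adaptors had 0 to 1 rises and 1 fall each time, junction partners 0 to 2 rises and 3 to 4 falls, and membrane linkers 0 to 1 rises. Leaving out the dimmest 50% of genes gave 1 rise and 1 fall among adaptors, 2 rises among junction partners, and 0 rises and 2 falls among linkers. Leaving out the dimmest 25% gave 0 rises among linkers and dropped VCAM1. A prior with trend and robust settings gave 5 rises among matrix ligands, 2 among junction partners and 2 falls among linkers, and 1953 genes called in all. The array number limits precision, and background correction could not be varied.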

Other observations

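Luminal epithelial markers moved in both directions. Of 10 measured, 3 were higher and 2 lower in knockout arrays, where 9.49% of all genes were called. EPCAM, the epithelial adhesion receptor gene, was 1.32-fold higher (7.22 ± 0.095 to 7.62 ± 0.0989, SD, n = 3 each, limma adjusted p = 0.0286), and the keratin genes KRT18 and KRT19 were 1.28-fold and 1.33-fold higher. GATA3, a luminal transcription factor gene, was 1.65-fold lower (7.48 ± 0.11 to 6.75 ± 0.0303, n = 3 each, adjusted p = 0.00166) and the receptor gene ERBB3 1.33-fold lower. The summed level of the list was 10.48 to 10.60 in control and 10.72 to 10.84 in knockout arrays.

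S1PR1, a sphingosine 1-phosphate receptor gene known from lymphocyte exit and endothelial junctions and the third measured gene after VCAM1 on chromosome 1, changed by -1.28 on the log2 scale (SE 0.0807, limma adjusted p = 9.43e-05). It was chosen after its values were seen.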
